A study of Bombyx mori with 4 samples.

Results

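The genes described here are those of solute transport and ion pumping in the larval testis of the silkworm Bombyx mori. They were taken as the array probes whose description, by homology with a human gene, held the words solute carrier, ATP-binding cassette, ATPase, H+ transporting, aquaporin, channel or transporter, and entries with the words mitochondrial or ATP synthase were left out. The words ATPase, Na+ and ATPase, Ca++ were searched as well and found 0 probes. The annotation searched was the 1999 of 12981 rows of the probe annotation that were used here. This gave 57 of the 43803 probes on the array, from 30 expressed sequence tags (ESTs, the partial cDNA sequences from which the probes were designed) with 25 different human gene symbols. Of the 57 probes, 16 from 8 ESTs were proton pump subunits, and 41 from 22 ESTs were carriers, channels and other transport names.

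The study asked which genes differ between op larvae and wild type, since op larvae have a translucent integument and little uric acid. Total RNA from testis, taken on day 3 of the fifth instar from op and wild-type larvae of strain o751, was read on 1-color Agilent arrays after Cy3 labeling. The data used were 2 op arrays and 2 wild-type arrays from 1 slide, numbered replicate 1 and 2 in each genotype. Nothing in the labels says that these samples came from separate animals, so the tests measure only the spread between these samples, which may be technical. Rearing on mulberry leaves was common to both genotypes.

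The vacuolar proton pump has a V1 sector, which lies in the cytosol and splits ATP, and a V0 sector, which lies in the membrane and passes protons. It acidifies endosomes, lysosomes and related organelles, and in insect epithelia it also energizes the uptake and secretion of other solutes. Carriers of the solute carrier (SLC) families move a solute down its gradient or couple it to an ion, ABC transporters use ATP directly, and aquaporins conduct water. In human tissues, urate is carried by members of the SLC2, SLC17, SLC22 and ABC families. In the silkworm the urate granules that whiten the skin lie in the larval epidermis, whereas the tissue measured here was testis.

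The values below are normalized log2 signals: each spot's background-subtracted intensity was put on the log2 scale and shifted by the 75th percentile of all probes on that array. A probe's level was never set against that of another probe. Genotypes were compared by limma with Benjamini-Hochberg adjustment over 30376 probes, each detected well above background in 1 genotype or both on all its arrays. Errors of differences are standard errors (SE) of that fit. Precision is limited by having 2 arrays in each genotype, for which the smallest p of an exact permutation test is 0.333. The arrays had 67.8% to 72.3% of probes well above background and 0 saturated spots. Op replicates differed from each other with an SD of 0.69 on the log2 scale over all tested probes, and wild-type replicates with an SD of 0.36. The probes of NANOS3, PIWIL4 and IFT52, which were listed as germ line markers, were well above background on all arrays (6 of 6). As 28352 of all 43803 probes were too, this does not identify the tissue. In RNA from a whole organ, fewer cells of a type and less RNA per cell cannot be told apart.

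Of the 57 probes, 50 were tested, 14 for proton pump subunits and 36 for the others, and 49 of these were well above background on all 4 arrays. No probe (0 of 50) had an adjusted p under 0.05 by limma, where 0.316% of all tested probes did. The lowest adjusted p among them was 0.0857. At an unadjusted p under 0.05 there were 13 probes higher and 6 lower in op. Higher probes came to 26.0% of the 50 and lower ones to 12.0%, beside 10.6% and 8.04% of all tested probes. The methods' t-test gave 0 probes after adjustment.

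More pump probes were lower than higher in op, and more carrier and channel probes were higher than lower. The median log2 difference, op minus wild type, was -0.13 over the 14 pump probes and 0.26 over the 36 others, beside 0.031 over all tested probes. Pump probes ran from -0.55 to 0.52, and the others from -0.68 to 2.95. The op mean was the lower for 10 of 14 pump probes and the higher for 21 of 36 others. Of all 30376 tested probes, 14217 were lower and 16159 higher. The 14 pump probes came from 7 ESTs and the 36 others from 19, and 24 of these 26 ESTs were counted on 2 probes. Without op replicate 1 the pump probes split evenly, with 7 higher and 7 lower and a median of -0.026. Both op arrays lay below both wild-type arrays for 6 pump probes (42.9%) and 9 others (25.0%), beside 24.9% of all tested probes. Both lay above for 2 pump probes (14.3%) and 19 others (52.8%), beside 28.8%.

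**Figure D1:**
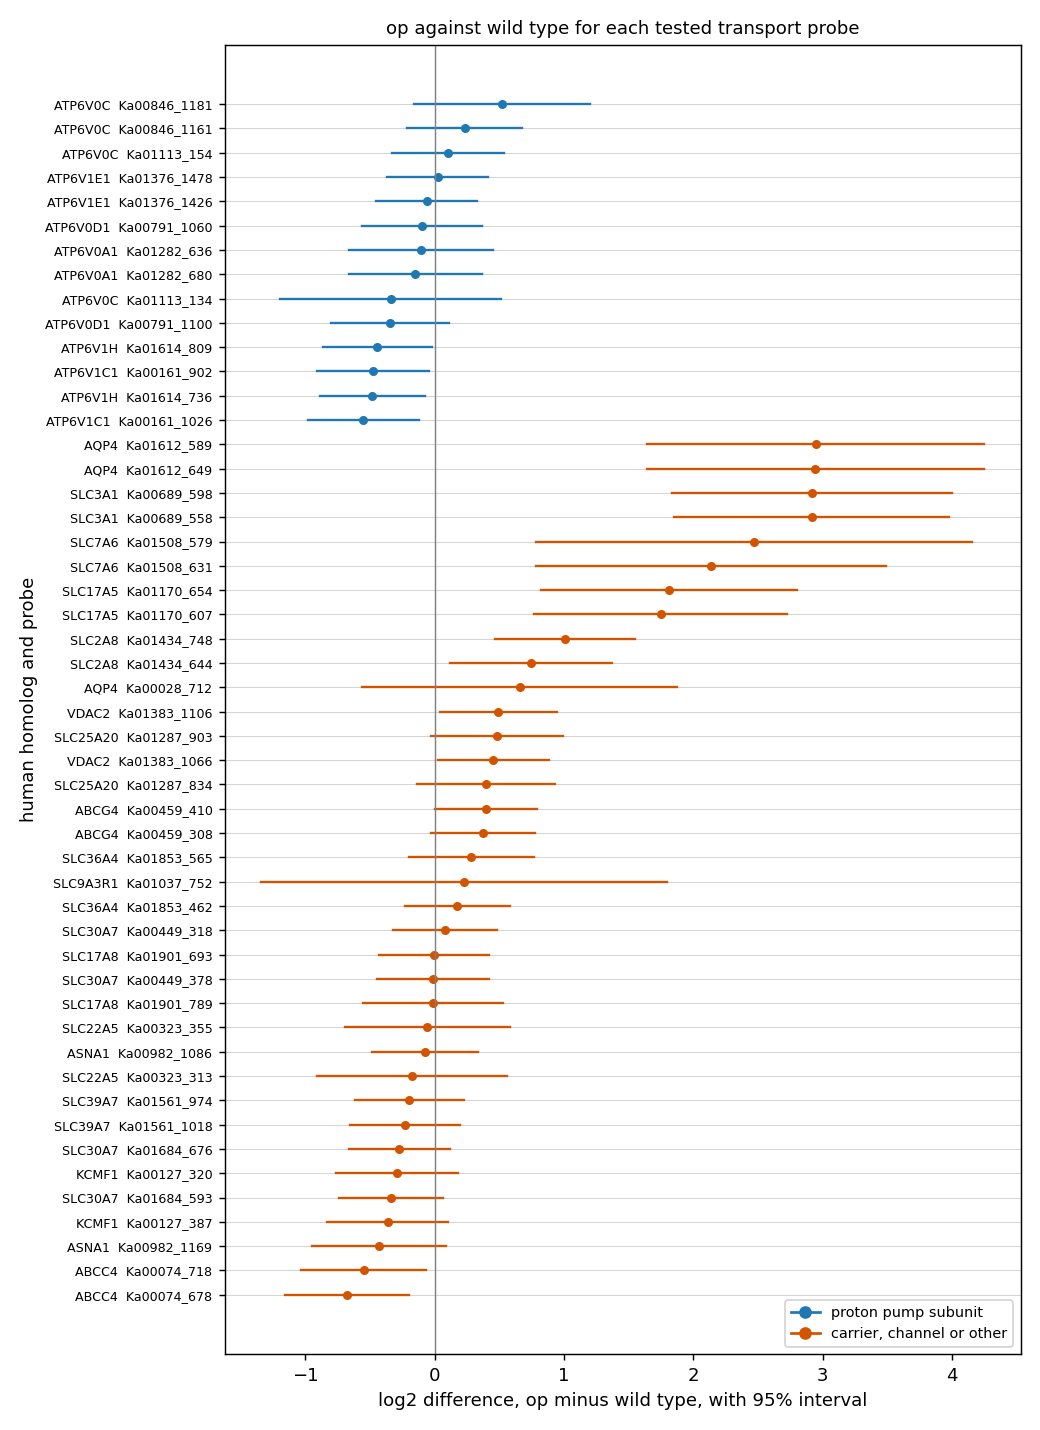
Log2 difference, op minus wild type (x axis), for each of the 50 tested probes (y axis, human homolog and probe), with the 95% interval of the limma fit as a bar and the estimate as a point. Pump subunits lie between -0.55 and 0.52, and the carriers and channels reach 2.95 on AQP4.

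Among the V1 subunits, the C and H subunits were lower in op on all 4 of their probes and the E subunit was close to equal. ATP6V1C1 is the C subunit, part of the peripheral stalk that links V1 to the membrane sector. Its probe Ka00161_1026 read 2.18 on op replicate 1 and 1.99 on op replicate 2, against 2.69 and 2.59 on the wild-type arrays, and all values below keep this order of replicates. Both op arrays lay below both wild-type arrays. The difference was -0.55 (SE 0.16, limma adjusted p = 0.203), which is 1.47-fold lower in op. The other probe of this EST, Ka00161_902, differed by -0.47 (SE 0.16, limma adjusted p = 0.244), again with no overlap between the genotypes.

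ATP6V1H is the H subunit, which is needed for activity of the assembled pump and silences the free V1 sector. Ka01614_736 read 3.93 and 3.82 in op against 4.32 and 4.39 in wild type. Its difference was -0.48 (SE 0.15, limma adjusted p = 0.221). Ka01614_809 read 4.94 and 4.82 in op against 5.25 and 5.39, a difference of -0.44 (limma adjusted p = 0.256). The genotypes did not overlap on either probe, and the op arrays differed from each other by 0.11 and 0.13. These 4 probes of 2 ESTs were the pump probes at an unadjusted p under 0.05, and all were lower in op (28.6% of 14, beside 8.04% of all tested probes). With a replicate block this count was 0, while 4759 of all 30376 tested probes were at that p. With either wild-type array left out, the differences of these probes ran from -0.60 to -0.37, and only the op arrays gave a spread.

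ATP6V1E1, the E subunit of the peripheral stalk, read close to equal in the genotypes. Ka01376_1426 read 5.11 on both op arrays and 5.14 and 5.19 on the wild-type arrays, a difference of -0.060 with a 95% interval of -0.45 to 0.33. Ka01376_1478 read 5.63 and 5.59 in op against 5.57 and 5.61 in wild type, a difference of 0.023 with an interval of -0.37 to 0.41. Over the 6 probes of the V1 sector, 5 were lower in op with no overlap (83.3%, beside 24.9% of all tested probes) and the median difference was -0.46. These probes come from 3 ESTs, and the 5 include Ka01376_1426 at -0.060. Other subunits of this sector were not analysed here.

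The V0 subunits had no common direction, with 3 of 8 tested probes higher, 5 lower and a median of -0.10. None was at an unadjusted p under 0.05 (0 of 8). These 8 probes were dim, with signals of 18.47 to 108.5, where the lowest signal well above background was 8.12 to 10.8. The tested V1 probes, with signals of 655.2 to 30890, lay much further from that level. Whether the sectors differ was not tested. ATP6V0C is the proteolipid that forms the proton-carrying ring, and 2 ESTs bore this name. On EST Ka00846 both probes were higher in op without overlap. Ka00846_1161 read -2.53 and -2.70 against -2.76 and -2.93, a difference of 0.23 (limma adjusted p = 0.508). Ka00846_1181 read -4.14 and -4.61 against -5.12 and -4.68, a difference of 0.52 (limma adjusted p = 0.359). On EST Ka01113 the genotypes overlapped on both probes and the signs differed, with -0.34 on Ka01113_134 and 0.10 on Ka01113_154. Which silkworm transcript each of these ESTs stands for was not analysed here.

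ATP6V0D1 is the d subunit, which couples the ring to the central stalk. Ka00791_1100 was lower in op without overlap, at -4.26 and -4.03 against -3.72 and -3.87, a difference of -0.35 (SE 0.17, limma adjusted p = 0.364). Ka00791_1060 of the same EST overlapped, with a difference of -0.096. ATP6V0A1 is the a subunit, which lines the path of the protons. Its probes Ka01282_636 and Ka01282_680 differed by -0.10 and -0.15, and on both the genotypes overlapped, with op replicate 2 at 0.39 above op replicate 1.

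A further EST named ATP6V0A1, Ka01515, was at the edge of detection and was not tested. Ka01515_1008 was well above background on 1 op and 1 wild-type array. Ka01515_943 was so on 1 of 2 op arrays and 0 of 2 wild-type arrays, and its op mean was 1.31-fold above a wild-type floor level. For that level each wild-type array stands at its detection floor, the lowest signal that any detected probe had there. Where the probe's own signal is higher, that signal is used. The op mean is the measured one, undetected arrays included, so the fold is not a lower bound.

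**Figure D2:**
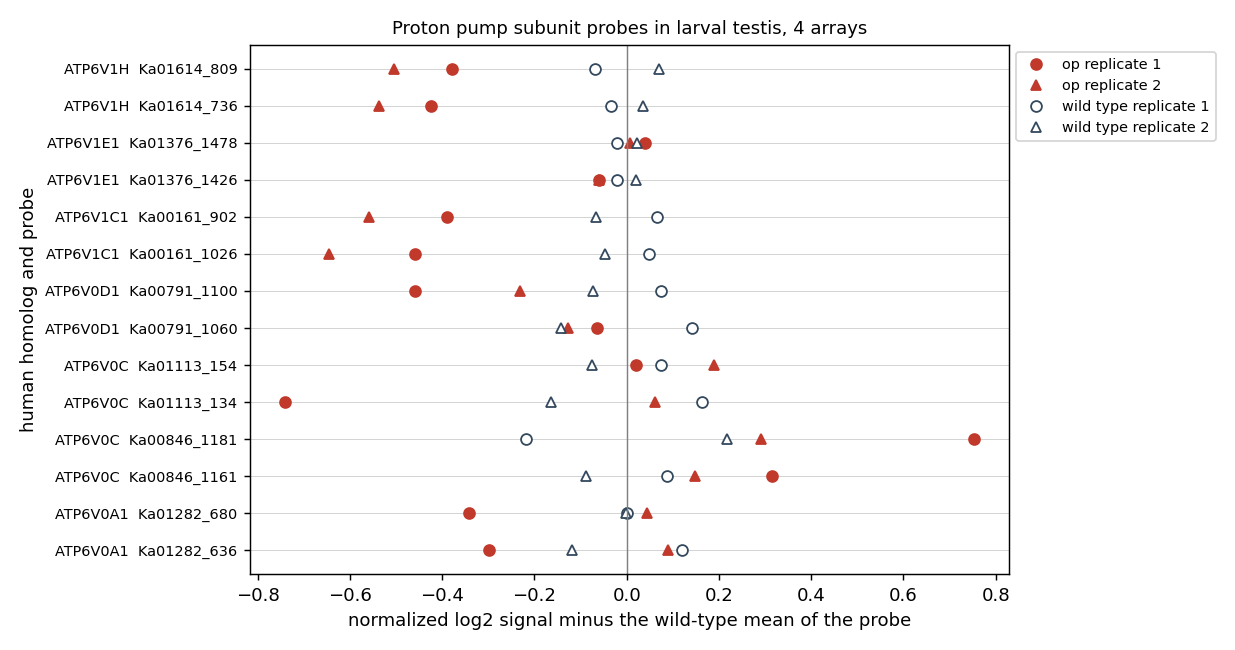
Normalized log2 signal of each of the 14 tested proton pump probes (y axis, human homolog and probe) on each array, minus the wild-type mean of that probe (x axis). Filled symbols are op and open symbols wild type, circles replicate 1 and triangles replicate 2. On the ATP6V1C1 and ATP6V1H probes both op symbols lie left of both wild-type symbols.

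Among the tested solute carriers, the widest differences were those of SLC3A1 and SLC7A6. SLC3A1 is in human the heavy chain rBAT, a glycoprotein that brings an amino acid exchanger of family SLC7 to the plasma membrane. Its probe Ka00689_558 read -0.30 and 0.79 in op against -2.80 and -2.53 in wild type. Both op arrays lay above both wild-type arrays, and op replicate 2 was itself 1.09 above op replicate 1. The difference was 2.91 (SE 0.40, 95% interval 1.85 to 3.98, limma adjusted p = 0.0857), which is 7.54-fold. Ka00689_598, whose ID number is 40 higher on the same EST, differed by 2.92 (SE 0.41, limma adjusted p = 0.0873). With normexp, a model-based background correction, the adjusted p of these probes was 0.0459 and 0.0483, and over all alternatives it ran from 0.00872 to 0.341 and from 0.00591 to 0.342. If probes whose numbers are 40 apart share sequence, their like values are not independent.

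A different EST named SLC3A1, Ka01609, was detected on op replicate 2 alone. Ka01609_768 read -6.33 and -3.20 in op against -7.60 and -6.68 in wild type, and Ka01609_810 read -6.05 and -3.11 against -6.35 and -5.76. Neither was tested. With 1 of 2 op arrays detected, the op means were 2.40-fold and 2.72-fold above the wild-type floor level, which again is not a lower bound. On Ka01609_810, op replicate 1 lay between the wild-type arrays.

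SLC7A6 is in human a light chain of an amino acid exchanger, and light chains of its family pair with heavy chains of family SLC3. Ka01508_579 read -3.63 and -1.79 in op against -5.32 and -5.04 in wild type, a difference of 2.47 (SE 0.64, limma adjusted p = 0.173). Ka01508_631 read -3.23 and -1.76 against -4.61 and -4.65, a difference of 2.14 (SE 0.51, limma adjusted p = 0.156). Both op arrays were above wild type, with op replicate 2 higher than op replicate 1 by 1.84 and 1.47. These differences were 0.997 and 1.08 with normexp, and without op replicate 1 or 2 they were 3.39 or 1.55 on Ka01508_579 and 2.87 or 1.40 on Ka01508_631. The wild-type signals were 16.03 and 17.46 on Ka01508_579 and 26.27 and 22.92 on Ka01508_631. The detection floors of these arrays were 8.12 and 10.7, so the wild-type readings were dim.

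SLC17A5 is the human sialin, which exports sialic acid from lysosomes with protons, and other human members of its family carry urate. Ka01170_607 read -2.28 and -1.26 in op against -3.51 and -3.53 in wild type, a difference of 1.75 (SE 0.37, limma adjusted p = 0.135). Ka01170_654 differed by 1.81 (SE 0.37, limma adjusted p = 0.132), with op arrays at -3.25 and -2.24 and wild-type arrays at -4.47 and -4.65. As for SLC3A1 and SLC7A6, op replicate 2 was the higher op array, here by 1.02 on both probes. With normexp the differences were 1.05 and 0.81, and on Ka01170_607 the difference was 2.26 without op replicate 1 and 1.24 without op replicate 2. On Ka01170_654 the wild-type signals were dim, at 28.89 and 22.95 beside detection floors of 8.12 and 10.7.

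SLC17A8, of the same family, read close to equal in the genotypes. It loads glutamate into synaptic vesicles in human. Ka01901_693 read -1.08 and -0.98 in op against -0.95 and -1.11 in wild type, and both op arrays lay between the wild-type arrays. The differences were -0.0028 on Ka01901_693 (95% interval -0.43 to 0.42) and -0.012 on Ka01901_789 (-0.55 to 0.53).

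SLC2A8 is a sugar transporter of intracellular membranes in human. Ka01434_748 read -1.29 and -1.35 in op against -2.11 and -2.54 in wild type, a difference of 1.01 (SE 0.20, limma adjusted p = 0.129). Ka01434_644 read -1.61 and -1.63 in op against -2.09 and -2.64, a difference of 0.74 (SE 0.24, limma adjusted p = 0.220). Here the op arrays were close to each other, within 0.062, and the wild-type arrays were the ones that spread, by 0.42 and 0.56.

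The ABC transporters went in both directions. ABCC4, which in human exports urate, cyclic nucleotides and drugs, was lower in op. Ka00074_678 read 0.26 and 0.19 in op against 1.06 and 0.74 in wild type, a difference of -0.68 (SE 0.18, limma adjusted p = 0.183) and 1.60-fold lower. Ka00074_718 differed by -0.55 (SE 0.18, limma adjusted p = 0.232). The op arrays lay within 0.072 of each other on both probes and below both wild-type arrays. At an unadjusted p under 0.05, 2 of 36 carrier and channel probes were lower, both of ABCC4 (5.56%, beside 8.04% of all tested probes).

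ABCG4, a sterol exporter in human, was higher in op by a small amount. Ka00459_410 read -2.19 on both op arrays and -2.54 and -2.63 on the wild-type arrays, a difference of 0.40 (SE 0.15, limma adjusted p = 0.267). Ka00459_308 read -1.35 and -1.36 against -1.67 and -1.79, a difference of 0.38 (limma adjusted p = 0.289).

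Aquaporin probes of 2 ESTs carried the name AQP4, a water channel. On EST Ka01612 the probe Ka01612_589 read 1.31 and 0.38 in op against -1.57 and -2.63 in wild type. Its difference was 2.95 (SE 0.49, 95% interval 1.64 to 4.25, limma adjusted p = 0.108), which is 7.71-fold. Ka01612_649 differed by 2.94 (SE 0.49, limma adjusted p = 0.108), with op arrays at 1.06 and 0.032 and wild-type arrays at -1.91 and -2.88. Replicate 1 was the higher array in each genotype, by 0.93 to 1.07, which is the opposite order in op to that of SLC3A1, SLC7A6 and SLC17A5. On the other EST, Ka00028_712 read -4.95 and -3.65 in op against -4.89 and -5.02 in wild type, so that op replicate 2 alone stood apart. That difference was 0.66 (SE 0.46, limma adjusted p = 0.498).

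Of the channels, VDAC2, the voltage-dependent anion channel of the outer membrane of mitochondria, was higher in op. Ka01383_1066 read 6.35 and 6.16 in op against 5.76 and 5.85 in wild type, a difference of 0.45 (SE 0.16, limma adjusted p = 0.255). Ka01383_1106 differed by 0.49 (SE 0.17, limma adjusted p = 0.246), also without overlap. VDAC2 stayed among these genes because its description does not hold the word mitochondrial. CLCN7, a chloride and proton exchanger of lysosomes, was well above background on 0 of 4 arrays.

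Counted over the 36 carriers, channels and other names, 13 probes of 7 ESTs were higher at an unadjusted p under 0.05 (36.1%, beside 10.6% of all tested probes). A difference of 1 or more on the log2 scale was found for 9 probes of 5 ESTs, all higher in op (25.0%, beside 5.1%). These ESTs were those of SLC3A1, AQP4, SLC7A6, SLC17A5 and SLC2A8. With normexp 6 probes of 4 ESTs remained past 1, and SLC2A8 was not among them.

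**Figure D3:**
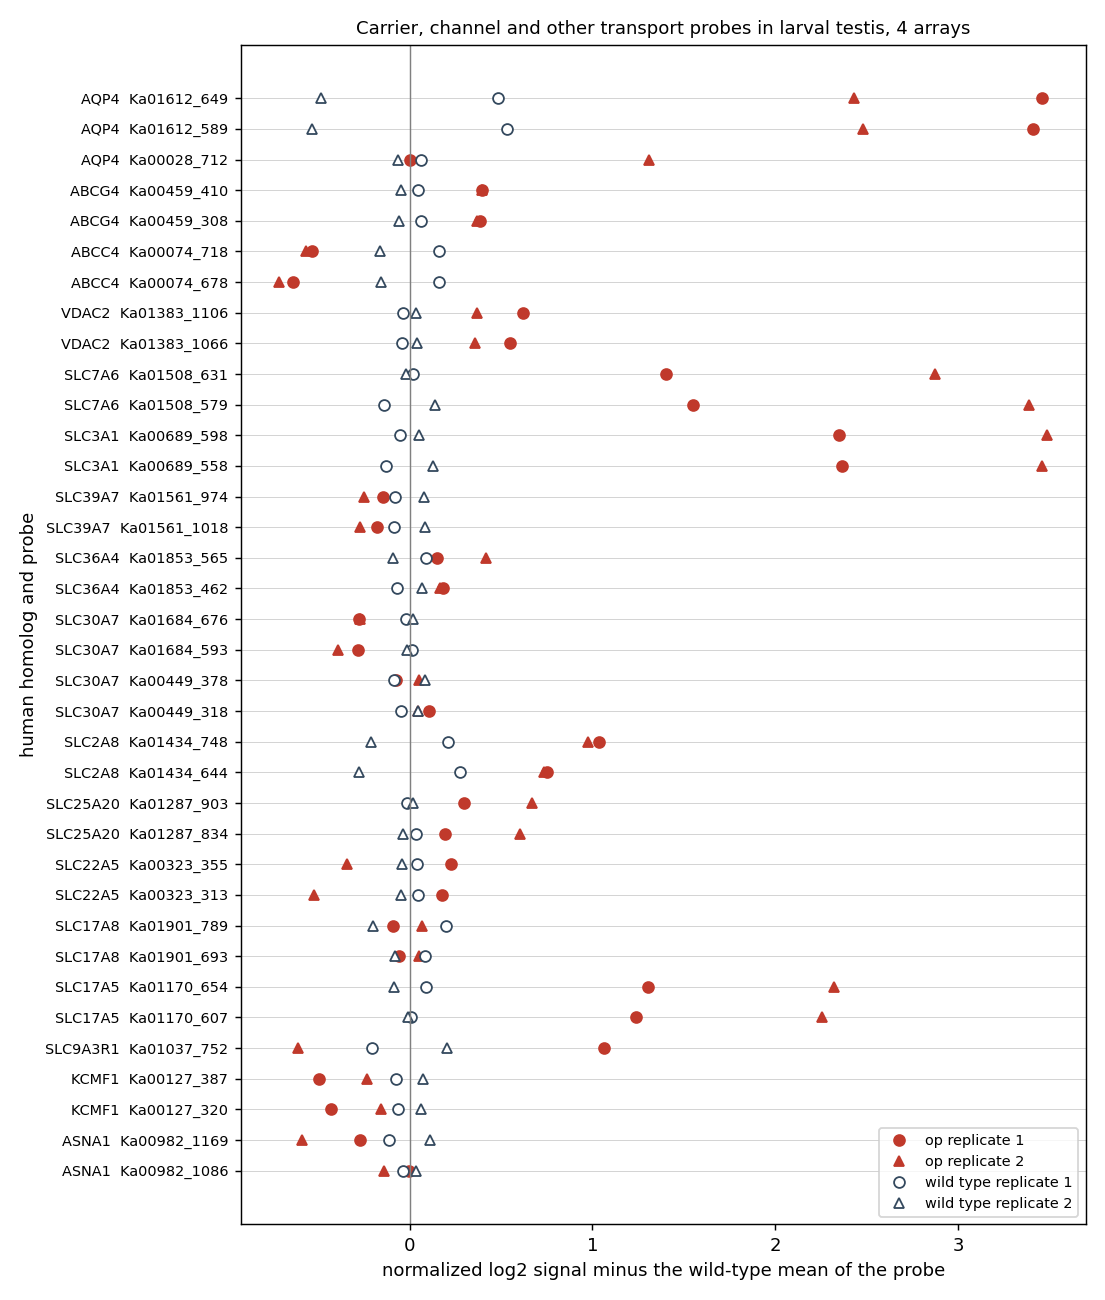
Normalized log2 signal of each of the 36 tested carrier, channel and other transport probes (y axis, human homolog and probe) on each array, minus the wild-type mean of that probe (x axis). Symbols are filled for op, open for wild type, circles for replicate 1 and triangles for replicate 2. On the SLC3A1, SLC7A6 and SLC17A5 probes the op triangle lies right of the op circle, and on the pair of AQP4 probes at the top it lies left of it.

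The remaining tested probes were those of SLC22A5, SLC25A20, SLC30A7, SLC36A4, SLC39A7, ASNA1, KCMF1 and SLC9A3R1, and none was at an unadjusted p under 0.05 (0 of 17). SLC25A20, which carries acylcarnitine into mitochondria, was higher in op without overlap on both probes, by 0.40 and 0.48. SLC22A5, a carnitine carrier of the plasma membrane, overlapped on both, with -0.17 and -0.058. SLC39A7, which releases zinc from the endoplasmic reticulum, was lower without overlap on both probes, by -0.20 and -0.23. SLC30A7, which moves zinc into the Golgi, differed by -0.33 and -0.27 on EST Ka01684 but by 0.078 and -0.011 on EST Ka00449. SLC36A4, an amino acid carrier, differed by 0.17 and 0.28. SLC25A42, a mitochondrial carrier of coenzyme A, was well above background on 1 op and 1 wild-type array and was not tested.

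Among these, KCMF1, ASNA1 and SLC9A3R1 were chosen by their words and are not themselves carriers or channels. KCMF1 is a ubiquitin ligase, ASNA1 delivers tail-anchored proteins to the endoplasmic reticulum and SLC9A3R1 is a scaffold protein. Their 5 tested probes ran from -0.43 to 0.23, and the other SLC9A3R1 probe was well above background on 0 arrays. Both op arrays lay below both wild-type arrays on 3 of the 5 (60%, beside 24.9% of all tested probes).

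Both probes of an EST usually gave like values. Of 24 ESTs with 2 tested probes, 21 had the same sign on both, and the exceptions were SLC30A7 on Ka00449, ATP6V0C on Ka01113 and ATP6V1E1. The gap between the differences of a pair had a median of 0.080 and a highest value of 0.44. In 12 of the 24, the numbers in the probe IDs lay under 60 apart, which is the probe length. If that number is a position in the EST, which is an assumption, such probes overlap.

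**Figure D4:**
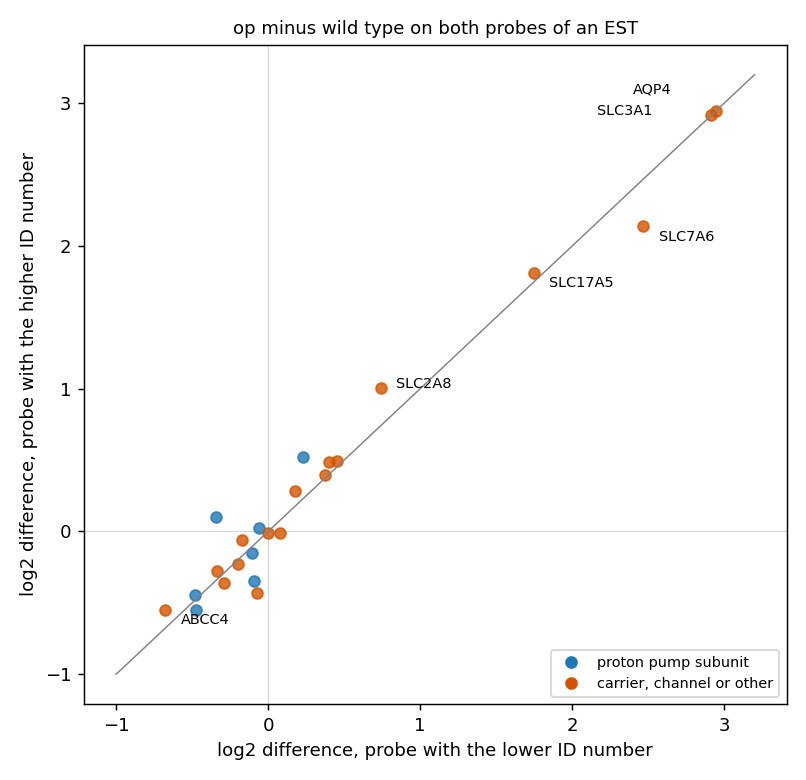
Log2 difference, op minus wild type, of the probe with the lower ID number (x axis) against that of the probe with the higher ID number (y axis), for the 24 ESTs with 2 tested probes. Points are ESTs, blue for proton pump subunits and orange for the others, and the gray line marks equal values, which the points follow with gaps of at most 0.44.

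The spread between replicates was wider over the carriers and channels than over the pump subunits. The SD of the log2 difference between op replicates was 0.32 over the 14 pump probes and 0.71 over the 36 others, against 0.20 and 0.31 between wild-type replicates. Op replicates differed by over 1 on 0 pump probes and on 9 others, and wild-type replicates on 0 and 1. Over all carriers and channels, op replicate 2 was the higher on 16 of the 36. Where op replicates differed by over 1, op replicate 2 was the higher on the tested SLC3A1, SLC7A6 and SLC17A5 probes and on AQP4 Ka00028_712. It was the lower on AQP4 Ka01612_649 and SLC9A3R1 Ka01037_752.

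Markers of other tissues were read on the same arrays, where 16159 of all 30376 tested probes were higher in op and 14217 lower. The muscle probes of TNNT3 and TPM2 were higher in op on 4 of 4, by 1.76 to 2.41, while TMOD1, the other muscle name, was well above background on 0 arrays. Over the 5 muscle probes the mean normalized log2 signal was -1.79 and -1.36 in op against -3.79 and -2.46 in wild type. Basement membrane probes (COL4A5, COL4A6, LAMA4 and NID1) were higher on 7 of 7, with a median of 1.36 and mean signals of -1.94 and -1.47 against -3.05 and -3.30. Germ line probes were lower on 5 of 6, with a median of -0.32. Fat body and blood cell probes were higher on 5 of 9 tested, and digestive enzymes of midgut type on 11 of 26 tested. Mean signals were taken over all listed probes, untested ones included. Over the 11 fat body and blood cell probes they were -2.04 and -1.92 in op against -2.38 and -2.34 in wild type. Over the 32 midgut type probes they were -3.45 and -3.28 in op against -3.45 and -3.31 in wild type. None of these marker probes passed the adjusted threshold in limma, and at an unadjusted p under 0.05 the probes higher in op were 4 muscle, 5 basement membrane, 4 fat body and blood cell and 4 midgut type ones (100%, 71.4%, 44.4% and 15.4% of those tested, beside 10.6% of all probes). Those lower were 4 midgut type probes (15.4%, beside 8.04%), and germ line probes numbered 0 in either direction. A log2 difference of 1 or more, higher in op, was found for 4 muscle, 4 basement membrane, 2 fat body and blood cell and 5 midgut type probes. These were 100%, 57.1%, 22.2% and 19.2% of those tested, beside 5.1% of all probes. Germ line probes numbered 0, and 3 midgut type probes were lower by 1 or more. The part of any such tissue in the carrier and aquaporin values was not tested.

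Genes of neighboring functions, from lists drawn from the same annotation rows, were read on the same arrays. Mitochondrial carriers left out by the rule were higher in op on 8 of 12 probes, with a median of 0.43. ATP synthase subunits, the rotary relatives of the vacuolar pump in mitochondria, were higher on 9 of 11, also with a median of 0.43. Endosome and lysosome genes were higher on 24 of 39, with a median of 0.090. Of all 30376 tested probes, 16159 were higher, with a median of 0.031. None of these probes passed the adjusted threshold in limma (0 of 12, 0 of 11 and 0 of 39), and at an unadjusted p under 0.05 there were 5, 4 and 7 higher (41.7%, 36.4% and 17.9%, beside 10.6% of all probes) and 0, 1 and 3 lower (0%, 9.09% and 7.69%, beside 8.04%). A log2 difference of 1 or more, higher in op, was found for 6 of the 39 endosome and lysosome probes (15.4%, beside 5.1% of all probes). Mitochondrial carriers and ATP synthase subunits had 0 such probes. Whether these lists differ from the pump subunits or from the carriers and channels was not tested.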

How the data were processed

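Testis RNA of op and wild-type larvae was read on 4 arrays of 60-mer probes. The authors took spot values with Agilent Feature Extraction 9.5, and the deposited scanner values used here are background-subtracted intensity values with flags. The authors also deposited normalized log2 values, which matched the values computed here within 0.000621 once a center per probe was taken out. The methods give 5 samples per genotype and also 2 for screening, of which 2 arrays per genotype were used here.

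The intensity values were put on the log2 scale and shifted by each array's 75th percentile (503.8 to 640.4), without control spots (1417 of 45220) and without the 2 to 4 spots flagged as outliers. The lowest signal well above background was 8.12 to 10.8. The test was two-sided, by limma 3.58.1 (lmFit, eBayes, 2.54 prior degrees of freedom) under R 4.3.3, over 30376 probes. The code was tested on simulated data.

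The text names every tested pump, ABC, SLC17 and aquaporin probe, every other member at an unadjusted p under 0.05 or a log2 difference of 1 or more, and the other probe of its EST (33 probes). Of the other tested probes, those of KCMF1, ASNA1 and SLC9A3R1 are given by range and the remaining ones by their differences. Human names rest on homology, and the genes and lists were chosen with earlier results of these data known. Alternatives were normexp (offset 50, on the median spot signal in place of the mean), quantile, median and no scaling, the deposited values, other filters, a replicate block, eBayes with trend and robust, the methods' t-test, and leaving out each array.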

Additional observations from a re-analysis of the deposited data

How the results depend on the processing

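No pump probe passed the adjusted threshold in any alternative run, and the ATP6V1C1, ATP6V1H and ABCC4 probes stayed lower in op in each. Over the named probes and alternatives, 453 values kept their direction and their side of the threshold, 26 passed it and 16 reversed. Other filters, a replicate block, eBayes with trend and robust, and the t-test leave a named probe's difference unchanged, the deposited values nearly so. A probe without overlap cannot reverse when 1 array is left out. The sign of the ATP6V1C1, ATP6V1H and ABCC4 probes could thus change only with normexp, quantile, median or no scaling. The count over all probes was 96 (43 higher, 53 lower). It was 414 with normexp (301 and 113), 15 after quantile normalization (5 and 10), 45 with no scaling (12 and 33), 54 for probes above background on all arrays, 0 with no filter on dim probes, 464 with the trend and robust fit, and 33 to 2413 without each array. The methods' t-test gave 0 after adjustment and 4213 before. Carrier and channel probes past the threshold, 0 as reported, numbered 4 with normexp (SLC3A1 and AQP4), 2 with the trend and robust fit (SLC3A1) and 0 to 8 without each array, being 7 without op replicate 1 and 8 without op replicate 2 (SLC3A1, SLC7A6 and SLC17A5 in each, with AQP4 Ka00028_712 in the former and the AQP4 probes of Ka01612 in the latter). With an op array left out, only wild type gave a spread, and the remaining op array is taken to vary as wild type does.

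With a replicate block the counts were 715 over all probes and 5 for carriers and channels (SLC3A1, AQP4 and SLC7A6). The numbers stand for no common batch or animal in the labels, and deviations of same-numbered arrays had a correlation of -0.029 across probes.

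The pump median of -0.13 was -0.058 with normexp (5 higher, 9 lower), -0.21 after quantile normalization, -0.22 with a median shift, -0.22 with no scaling and from -0.32 to -0.026 when an array was left out, the last without op replicate 1. The other median of 0.26 was 0.20 with normexp, 0.22 with quantile, 0.16 with a median shift, 0.16 with no scaling and from 0.19 to 0.28 when an array was left out. The median of all probes, 0.031, was itself -0.063 with a median shift and -0.065 with no scaling, and relative to it the list medians were the same -0.16 and 0.22 in each of these. Pump probes at an unadjusted p under 0.05, 4 and all lower, numbered 0 with the replicate block and without either wild-type array, and 2 (1 higher, 1 lower) with no filter. Carrier and channel probes higher at that p, 13 as reported, numbered 6 by the methods' t-test and 8 without wild type replicate 2. Differences near 0 reversed. With normexp ATP6V0D1 Ka00791_1060 was 0.032, ATP6V0C Ka01113_134 was 0.016, SLC17A8 Ka01901_789 was 0.012 and ATP6V1E1 Ka01376_1478 was -0.0029. Ka01376_1478 was also -0.068 with quantile, -0.071 with a median shift and -0.073 with no scaling. A median shift and no scaling move the difference of every probe alike, which fixes the change of sign under these settings. Without each array Ka00791_1060 ran from -0.24 to 0.045, Ka01113_134 from -0.74 to 0.060, ATP6V0A1 Ka01282_636 from -0.30 to 0.090 and Ka01282_680 from -0.34 to 0.045, and SLC17A8 Ka01901_693 from -0.085 to 0.079 and Ka01901_789 from -0.21 to 0.19. AQP4 Ka00028_712 was 1.31 without op replicate 1 and 0.0032 without op replicate 2. For the other shifts the cause was not tested. For the untested probes near background the size of a difference was not measured.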
